A study of Mus musculus with 12 samples.

Results

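The genes described here encode the AP-1 and Egr transcription factors of the immediate early response: Fos, Fosb, Fosl1, Fosl2, Jun, Junb, Jund, Egr1, Egr2 and Atf3. They were taken by symbol from a count table of 55291 gene symbols. All 10 were found, and all 10 passed the filter on low counts, which left 17289 genes for testing. The counts came from 12 RNA sequencing libraries of MC3T3-E1 cells, a wild-type mouse preosteoblast line that was grown in serum and induced to form bone from 2 days after confluence, named day 0. Control cultures received no interferon, and IFN cultures received interferon beta (IFN), a type I interferon, at 50 mg/L from the start of differentiation. Each arm was sampled at days 0, 14 and 21, giving 6 groups of 2 libraries. All groups share the cell line, the wild-type genotype and the bone differentiation protocol, of which day 0 is the start. It is not stated if cells labelled IFN, day 0 had met interferon before harvest, nor if replicates were separate cultures, so p-values may measure only technical spread.

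AP-1 is a dimer of bZIP proteins. A Fos protein (Fos, Fosb, Fosl1 or Fosl2) pairs with a Jun protein (Jun, Junb or Jund), and Jun proteins also pair with each other and with the related protein Atf3. Egr1 and Egr2 are zinc finger factors that bind GC-rich sites. Growth factors, serum and stress switch most of these genes on within minutes through MAP kinases, the serum response factor and CREB-like factors already present in the cell, and the transcripts are short-lived. In bone, Fosl2 and Fosl1 are known for roles in osteoblast function and matrix production, Fosb for an isoform that raises bone mass, and Junb and Jund for roles in osteoblast growth and differentiation.

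The starts of 4 of these genes are shown, those whose windows held any of the motifs marked in capitals below, at which known inputs are read. The windows of Fosb, Fosl2, Junb and Jund held none of these marked motifs. Each window runs from 250 bases before to 50 bases after the annotated start, from RefSeq on GRCm38.p6, the assembly that mm10 names. Of the 10 members, 8 matched an entry there, all but Fosl1 and Egr1. Capitals mark matches on either strand to the serum response element (CArG box), the cyclic AMP response element or Jun site TGACNTCA, its half-site TGACGT and the AP-1 site TGANTCA. The half-site lies inside the full site where its N is G. Among 32851 windows of 300 bases, 1.63% held the CArG box, 8.83% TGACNTCA, 7.51% TGACGT and 7.81% TGANTCA. In mm10 (GENCODE M21) Fos spans chr12:85473890-85477273, Jun chr4:95049034-95052222, Egr2 chr10:67535475-67542188 and Atf3 chr1:191170296-191218039, so the windows shown for Egr2 and Atf3 begin inside the span of the gene. Fosb lies at chr7:19302696-19310051, Fosl1 at chr19:5447547-5455946, Fosl2 at chr5:32135801-32157842, Junb at chr8:84974484-84978718 and Jund at chr8:70698949-70700616. The sequences are Fos (chr12:85473640-85473939, plus strand), Jun (chr4:95052173-95052472, minus strand), the third annotated start of Egr2 (chr10:67537619-67537918, plus strand) and Atf3 (chr1:191183284-191183583, minus strand).
Fos: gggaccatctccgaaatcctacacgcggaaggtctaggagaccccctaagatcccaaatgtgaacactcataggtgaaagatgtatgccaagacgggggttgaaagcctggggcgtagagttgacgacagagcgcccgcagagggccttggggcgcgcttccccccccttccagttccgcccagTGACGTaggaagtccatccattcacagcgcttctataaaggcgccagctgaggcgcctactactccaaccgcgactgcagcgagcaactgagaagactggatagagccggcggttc
Jun: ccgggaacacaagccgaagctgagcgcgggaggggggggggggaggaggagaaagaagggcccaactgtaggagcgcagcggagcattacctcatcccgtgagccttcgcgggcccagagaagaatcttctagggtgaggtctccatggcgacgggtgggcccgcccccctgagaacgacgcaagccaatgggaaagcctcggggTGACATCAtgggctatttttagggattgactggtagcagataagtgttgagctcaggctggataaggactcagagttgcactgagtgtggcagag
Egr2: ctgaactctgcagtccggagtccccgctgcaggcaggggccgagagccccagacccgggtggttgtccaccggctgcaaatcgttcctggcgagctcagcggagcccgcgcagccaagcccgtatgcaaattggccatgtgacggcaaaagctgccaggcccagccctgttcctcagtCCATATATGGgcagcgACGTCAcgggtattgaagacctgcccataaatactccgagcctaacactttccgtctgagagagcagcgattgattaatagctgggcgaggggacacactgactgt
Atf3: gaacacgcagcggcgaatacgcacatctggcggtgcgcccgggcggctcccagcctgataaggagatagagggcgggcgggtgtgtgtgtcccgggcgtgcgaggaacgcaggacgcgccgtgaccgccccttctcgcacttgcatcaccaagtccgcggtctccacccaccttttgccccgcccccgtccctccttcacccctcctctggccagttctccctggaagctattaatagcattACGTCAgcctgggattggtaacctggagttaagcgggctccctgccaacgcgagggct
In the Fos window TGACGT lay at -66 to -61 from the start, upstream of a TATA box (TATAAA) at -33 to -28. The Jun window held the full site TGACATCA at -45 to -38. The Egr2 window held the CArG box at -72 to -63 and the half-site, on the minus strand, at -56 to -51, letters shared by the windows of 3 of its 5 annotated starts. The Atf3 window held only the half-site, at -8 to -3 on the minus strand. A match is a description of letters and not a measured site of binding. Letters more than 250 bases before the start were not searched, so a window without a motif does not show that the gene lacks it. The interferon-stimulated response element core (in 3.44% of windows) matched among the members only in the window of Fosl2.

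Library totals ran from 29772425 to 38908453 counts, and the lowest member count in any library was 72, for Fos in control day 0 replicate 1. Levels below are in CPM, counts scaled to a common library size after TMM normalization. All 10 genes of an interferon check list were higher with IFN than in control at day 14 and at day 21 (5 of 10 at day 21 without control day 21 replicate 2). Irf7 among them, a transcription factor that interferon induces, was at 720 and 742 CPM in IFN day 14 and 505 and 546 CPM in IFN day 21, but at 5.50 and 3.10 CPM in IFN day 0 and 2.70 to 13.7 CPM in control. Of the osteoblast markers, Runx2 was at 71.9 to 126 CPM and Col1a1 at 1083 to 9729 CPM, while Bglap, a late marker, stayed at 0.292 to 6.89 CPM and Ibsp had no count in 3 of the 4 day 0 libraries. The leukocyte gene Ptprc did not exceed 0.123 CPM, the macrophage gene Adgre1 0.0875 CPM and the epithelial gene Epcam 0.0288 CPM. Ptprc and Adgre1 do not stand for their list, since the 8 macrophage and osteoclast markers summed to 78.2 to 538 CPM per library. Replicates of the members lay close together in the IFN arm, with a median SD of log2 CPM of 0.12, 0.07 and 0.10 at days 0, 14 and 21, against 0.08, 0.09 and 0.11 over all genes. In control it was 1.06, 0.80 and 1.63 for the members and 0.29, 0.24 and 0.44 over all genes.

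A pair of control libraries stood apart, and both touch these genes. Control day 21 replicate 2 had Hspa5, which encodes the endoplasmic reticulum chaperone BiP, at 25680 CPM against 563 to 1828 CPM in the other 11 libraries. Its member values are given separately below, and where leaving out that library changes a call or a direction, or moves a value by over 1.5 times, the value without it is given too. Control day 0 replicate 1 differed from the other 3 day 0 libraries, which resembled each other across arms. There, Fos was at 2.22 CPM against 354 to 408 CPM, 174-fold below their mean, Fosb was 67.1-fold and Egr1 5.98-fold below, and Fosl1 was 3.52 times as high. A fit without both libraries was added after these values were seen. Leaving out control day 0 replicate 1 removes the library that departs for these same genes, so the size of the day 0 values in that fit, and for Fos and Fosb the direction of the change from day 0 in control, are set by the choice.

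**Figure D1:**
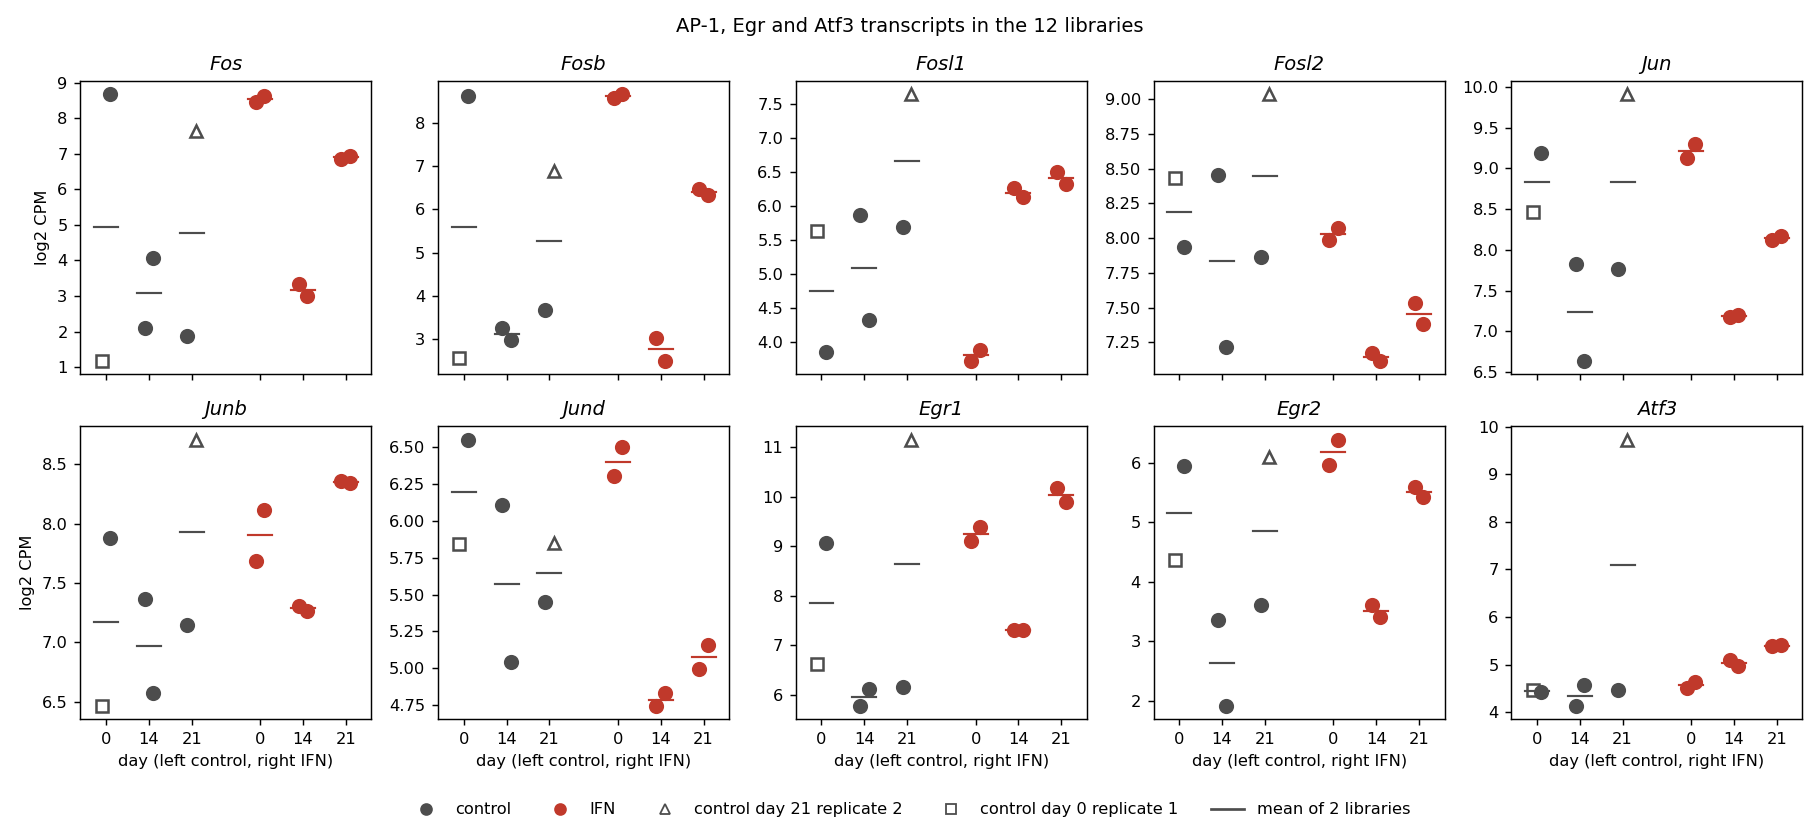
Level of each of the 10 genes in every library, as log2 CPM (y axis, its range set for each gene), by day and arm (x axis). Circles are libraries, the open triangle is control day 21 replicate 2, the open square is control day 0 replicate 1, and lines are means of 2 libraries. In the IFN arm Fos starts at 354 and 396 CPM, lies at 10.1 and 7.95 CPM at day 14 and at 116 and 123 CPM at day 21, and Atf3 is at 847 CPM only in the library drawn as a triangle.

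Through the IFN arm, 8 of the 10 genes were lower at day 14 than at day 0 in both libraries. Fosl1 and Atf3 were higher at day 14, and all 10 were higher at day 21 than at day 14. Over all genes, the groups did not overlap for 74.4% in the first step and 60.1% in the second. Fos, the founding member of AP-1, was at 354 and 396 CPM at day 0, 10.1 and 7.95 CPM at day 14, and 116 and 123 CPM at day 21. Fosb followed it, at 379 and 403, then 8.12 and 5.62, then 87.9 and 79.8 CPM. For both genes the 3 days did not overlap, and day 21 lay between the earlier days. In these bulk samples, fewer cells expressing a gene and less RNA per cell cannot be told apart. Against day 0, Fosb fell 56.8-fold by day 14 (log2 -5.83 ± 1.60 (SE), edgeR adjusted p = 0.0466), and Fos was 41.5-fold lower without passing (log2 -5.37 ± 2.06, edgeR adjusted p = 0.13). Between days 14 and 21, Fos was 13.2-fold higher (log2 3.72 ± 1.91, edgeR adjusted p = 0.816) and Fosb 12.2-fold higher (log2 3.61 ± 1.45, edgeR adjusted p = 0.734).

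Egr1, which responds to many of the stimuli that act on Fos, was at 551 and 674 CPM at day 0, 159 and 160 CPM at day 14, and 1167 and 952 CPM at day 21. Egr2 was at 62.3 and 83.6, then 12.2 and 10.6, then 48.4 and 42.9 CPM. The 2 Egr genes shared the low value at day 14, but at day 21 Egr1 stood above its day 0 level in both libraries and Egr2 below it. Egr2 fell 6.41-fold from day 0 to day 14 (log2 -2.68 ± 0.75, edgeR adjusted p = 0.0467), and Egr1 was 3.84-fold lower (log2 -1.94 ± 1.11, edgeR adjusted p = 0.307). The values for day 21 against day 14 were log2 2.73 ± 1.14 for Egr1 (edgeR adjusted p = 0.745) and 2.00 ± 0.74 for Egr2 (edgeR adjusted p = 0.722). Egr1 at day 21 differed from day 0 by log2 0.79 ± 1.08 (edgeR adjusted p = 0.713).

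Among the Jun genes, Jun, the partner with the strongest transactivation, was at 561 and 632 CPM at day 0, 144 and 147 CPM at day 14, and 279 and 288 CPM at day 21. Jund, the member usually described as constitutive, was at 78.9 and 90.4, then 26.8 and 28.4, then 31.9 and 35.6 CPM. Junb, which can oppose Jun on shared sites, was at 206 and 277, then 159 and 154, then 329 and 325 CPM. Jun and Jund ended below their day 0 level and Junb above it. Jun fell 4.11-fold (log2 -2.04 ± 0.58, edgeR adjusted p = 0.0492) and Jund 3.07-fold (log2 -1.62 ± 0.33, edgeR adjusted p = 0.0123) by day 14, while Junb differed by log2 -0.63 ± 0.51 (edgeR adjusted p = 0.491). Jund was still lower at day 21 than at day 0 (log2 -1.33 ± 0.33, edgeR adjusted p = 0.0301). Over the last step, to day 21, Jun differed by log2 0.96 ± 0.56 (edgeR adjusted p = 0.844) and Junb by 1.06 ± 0.51 (edgeR adjusted p = 0.796). Junb at day 21 against day 0 gave log2 0.44 ± 0.51 (edgeR adjusted p = 0.658).

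Fosl1 ran the other way. This Fos relative, which lacks the transactivation domain of Fos, was at 13.2 and 14.7 CPM at day 0, 77.1 and 70.1 CPM at day 14, and 90.5 and 80.3 CPM at day 21. It was 5.27-fold higher at day 14 (log2 2.40 ± 0.70, edgeR adjusted p = 0.0546) and rose 6.12-fold from day 0 to day 21 (log2 2.61 ± 0.71, edgeR adjusted p = 0.0423). Fosl2, the other such relative, was at 254 and 269, then 145 and 139, then 185 and 167 CPM, with log2 -0.88 ± 0.41 at day 14 (edgeR adjusted p = 0.203). Atf3, a stress-induced bZIP factor, was at 22.7 and 24.8, then 34.2 and 31.5, then 42.1 and 42.2 CPM. Its differences from day 0 were log2 0.47 ± 0.98 at day 14 (edgeR adjusted p = 0.821) and 0.83 ± 0.99 at day 21 (edgeR adjusted p = 0.666), and the 3 days did not overlap. In the fit without control day 21 replicate 2, whose Atf3 value enters the pooled spread, Atf3 rose from day 0 to day 21 (log2 0.82 ± 0.16, edgeR adjusted p = 0.00531).

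By edgeR with all 12 libraries, 4 of the 10 members were called between day 0 and day 14 of the IFN arm, all lower, where 10.7% of all genes were called. Between day 0 and day 21, 2 were called, Fosl1 higher and Jund lower, against 10.2% of all genes. From day 14 to day 21 the count was 0, with 3 at an unadjusted p under 0.05 and 0 by DESeq2. In that step edgeR called 0% of all genes, with 1131 at an unadjusted p under 0.05 and 111 called by DESeq2. That fit pools the spread over all 6 groups, control included. Separate fits were also made on only the 2 IFN groups of each comparison, each with its own set of genes tested. In these, 9 members passed at day 14 (all but Junb, 58.7% of all genes). From day 14 to day 21, 10 passed, all higher (28.9% of all genes), and 9 passed at day 21 against day 0 (all but Junb, 52.5% of all genes). With control day 21 replicate 2 left out, 4 passed at day 14 (20.9% of all genes), but Fosb was no longer among them (edgeR adjusted p = 0.0769) and Fosl1 passed as higher (edgeR adjusted p = 0.0447), beside Jun, Jund and Egr2 as lower. In the same fit 0 passed from day 14 to day 21 (0.54%; 5 at an unadjusted p under 0.05) and 3 at day 21 against day 0 (19.8%), with Atf3 added as higher. The groups did not overlap for 10 of 10 members between days 0 and 14, as for 74.4% of all genes, nor for 10 of 10 between days 14 and 21, as for 60.1%. The edgeR calls at day 14 were lost without any one IFN library of day 0 or day 14. Such a fit leaves a lone library in a group, and far fewer of all genes were then called too. The loss is thus not particular to the members. With 1 library removed at a time, log2 ran from -6.14 to -5.6 for Fosb and from -2.12 to -1.97 for Jun. It ran from -2.88 to -2.48 for Egr2 and from -1.71 to -1.54 for Jund. From day 0 to day 21 the values ran from 2.51 to 2.69 for Fosl1 and from -1.42 to -1.24 for Jund. Both of these calls were also lost in some of the fits.

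**Figure D2:**
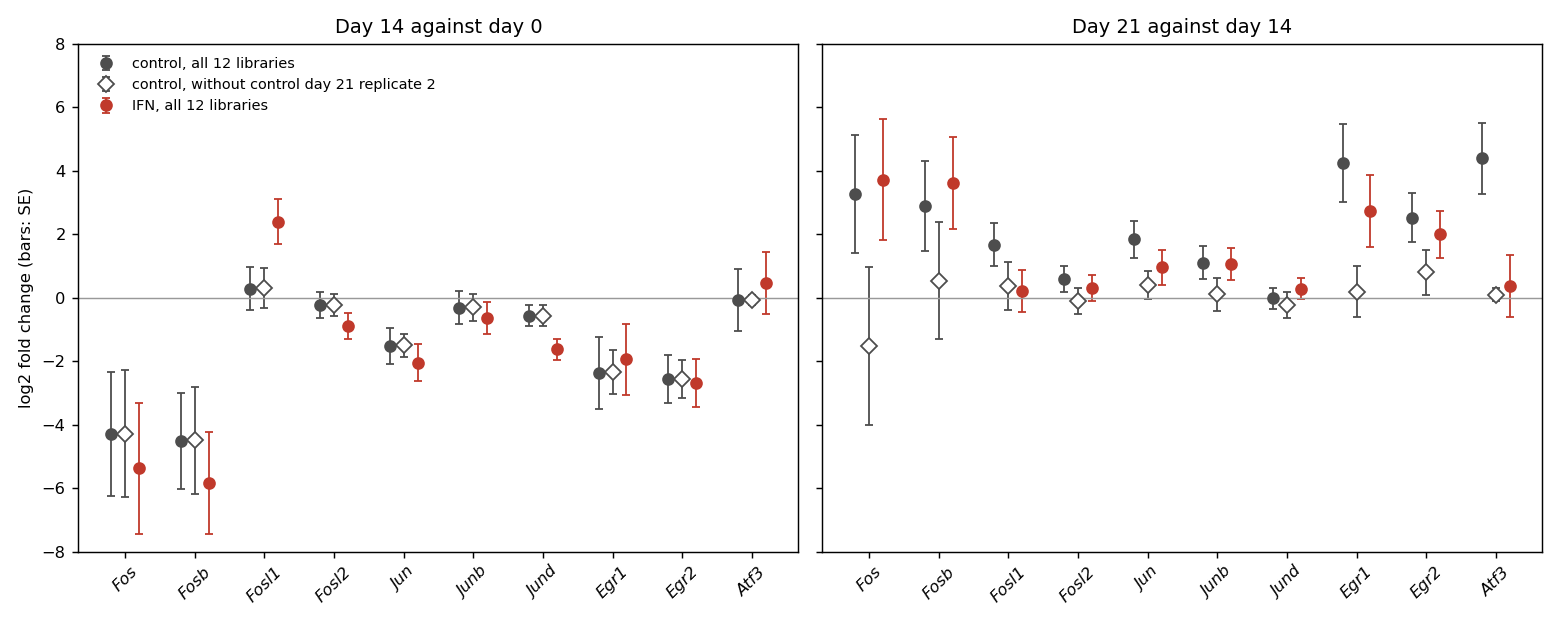
Fitted log2 fold change (y axis) of each gene (x axis) from day 0 to day 14 (left) and from day 14 to day 21 (right), with bars of 1 SE, in control with all libraries (dark circles), in control without control day 21 replicate 2 (open diamonds) and in the IFN arm (red circles). On the right, Egr1 in control lies at 4.25 with all libraries and at 0.19 without that library, and in the IFN arm at 2.73.

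In the control arm the same genes were spread more widely between replicates. Leaving aside replicate 2 of day 21, Fos was at 2.22 and 408 CPM at day 0, 4.24 and 16.6 CPM at day 14 and 3.65 CPM at day 21. Fosb was at 5.82 and 390, then 9.52 and 7.89, then 12.7 CPM. Egr1 was at 98.3 and 539, then 54.7 and 69.4, then 70.9 CPM. In these 3 genes 1 day 0 library alone was high, and the library of day 21 was near those of day 14. Egr2 was at 20.5 and 61.7, then 10.1 and 3.71, then 12.1 CPM. Jun was at 355 and 582, then 228 and 99.6, then 218 CPM. For Jun, Egr1 and Egr2 both day 0 libraries lay above both day 14 libraries, and the other 7 members overlapped. Over all genes, these groups did not overlap for 7344 of 17289.

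Junb in control was at 88.3 and 235 CPM at day 0, 165 and 95.4 CPM at day 14 and 142 CPM at day 21. Jund was at 57.4 and 93.7, then 68.9 and 32.8, then 43.7 CPM. Fosl1 was at 49.7 and 14.4, then 58.5 and 19.9, then 51.5 CPM. In all 3 genes the day 0 and day 14 libraries overlapped, and within day 14 replicate 1 was the higher. Fosl2 was at 346 and 245, then 350 and 149, then 233 CPM. Atf3 was the steadiest, at 22.1 and 21.3, then 17.5 and 23.6, then 22.1 CPM.

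From day 0 to day 14 of control, edgeR called 0 of 10 members and 2.38% of all genes. At an unadjusted p under 0.05 there were 3 members and 2812 of 17289 genes. DESeq2 called 1 member and 1229 genes. The values were log2 -4.29 ± 1.95 for Fos (edgeR adjusted p = 0.315), -4.51 ± 1.51 for Fosb (edgeR adjusted p = 0.169), -2.36 ± 1.13 for Egr1 (edgeR adjusted p = 0.335), -2.57 ± 0.76 for Egr2 (edgeR adjusted p = 0.116) and -1.52 ± 0.57 for Jun (edgeR adjusted p = 0.216). Without control day 0 replicate 2, Fos turned to 2.23 and Fosb to 0.58, since replicate 1 alone then stood for day 0. Egr1 was then at -0.66 and Egr2 at -1.57, and without control day 14 replicate 2 Jun was at -1.04. Without control day 21 replicate 2 from the pooled spread, Jun and Egr2 passed as lower (8.35% of all genes). Without both libraries that stood apart, Fos, Fosb, Egr1 and Egr2 passed as lower (10.2% of all genes). That direction rests on the choice of library for Fos and Fosb, while Jun, Egr1 and Egr2 were lower at day 14 in every fit with 1 library removed.

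Control day 21 replicate 2 held 6 of the 10 genes at their highest level of all libraries. Atf3 was at 847 CPM there, 20.1 times the highest of the other 11 libraries. Egr1 was at 2287 CPM, 1.96 times the highest of the others, and Fosl1 at 200 CPM, 2.21 times. Jun at 962 CPM, Fosl2 at 524 CPM and Junb at 418 CPM were 1.52, 1.49 and 1.27 times the highest of the others. Fos at 198 CPM and Fosb at 118 CPM were 54.3 and 9.25 times their levels in replicate 1 of the same group, but below the 3 day 0 libraries in which they were high. Egr2 at 67.9 CPM and Jund at 57.5 CPM lay within the range of the others. Atf3 in this library was thus above every day 0 library, and Fos was below 3 of the 4.

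**Figure D3:**
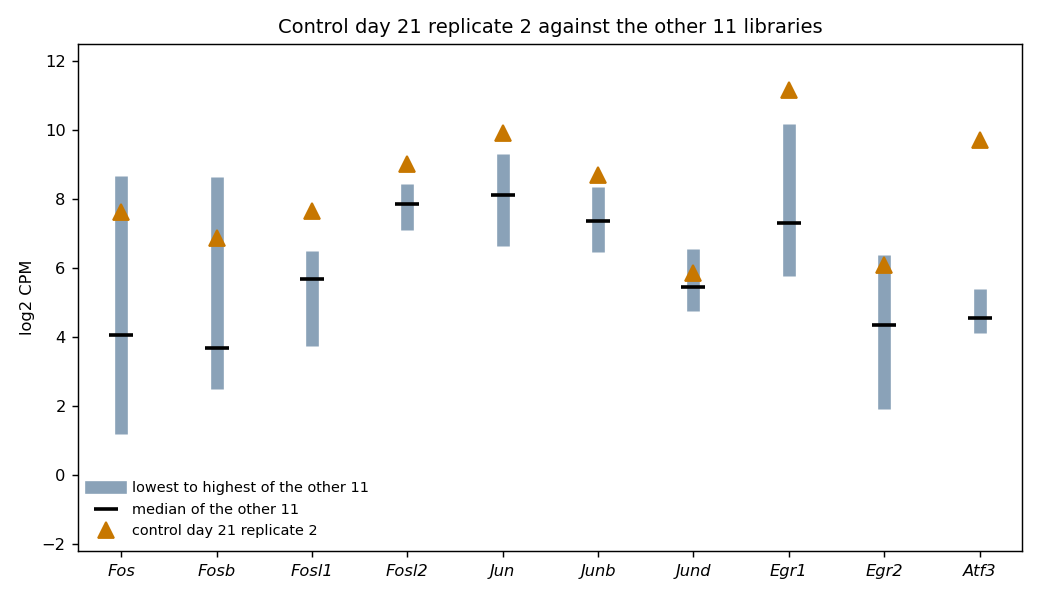
Level of each gene (x axis) as log2 CPM (y axis) in control day 21 replicate 2 (triangles) against the lowest to highest (bars) and the median (black marks) of the other 11 libraries. The triangle lies above the bar for 6 of the 10 genes, farthest for Atf3 at 847 CPM, and inside it for Fos, Fosb, Jund and Egr2.

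Stress genes moved with these values in the same library. Over the 18 listed endoplasmic reticulum chaperones the summed level was 68420 CPM there against 4214 to 7589 CPM in the other 11 libraries, over 12 heat shock chaperones 34710 against 3737 to 5427 CPM, and over 20 genes of the integrated stress response 8879 against 2448 to 3954 CPM. Ddit3, a target of that response, was at 1458 CPM, against 62.7 to 358 CPM in the others. The summed level of 22 growth factor and ERK pathway genes was 3236 CPM, inside the range of 2644 to 3307 CPM of the others. Their median, 106.5 CPM, lay above the 75.1 to 104.7 CPM of the others. Other lists were also above their range in summed level. These were 32 other immediate early genes (10880 against at most 6889 CPM), 20 feedback inhibitors (3472 against 2536), 16 other bZIP genes (5137 against 2764) and 26 targets of AP-1 or Egr1 (41440 against 32950). The 12 upstream regulators, at 1233 CPM, were inside theirs. By median, the feedback inhibitors (65.7 against at most 78.5 CPM) and the targets (147.3 against 161.3) were inside their range. The medians of the other immediate early genes (222.4 against 114.2), the other bZIP genes (155.9 against 136.4) and the upstream regulators (100.4 against 99.2) were above theirs. The TMM factor of this library was 0.809, against 0.975 to 1.04 for the other 11. What part these had in the member values was not tested.

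With this library included, Atf3 was the only member called at day 21 against day 0 in control (log2 4.32 ± 1.11, edgeR adjusted p = 0.0466, 6.44% of all genes called). Without it the value was 0.03 and no member was called (4.99% of all genes). The call also ended in 10 other fits with 1 library removed, all but that without control day 21 replicate 1, in which replicate 2 alone stood for the day. For day 21 against day 14 of control, edgeR called 0 of 10 members and 0.0289% of all genes. At an unadjusted p under 0.05 there were 5 members and 3074 of 17289 genes. DESeq2 called 3 members and 838 genes. The values there were log2 4.40 ± 1.12 for Atf3 (edgeR adjusted p = 0.141), 4.25 ± 1.22 for Egr1 (edgeR adjusted p = 0.164) and 1.85 ± 0.58 for Jun (edgeR adjusted p = 0.179). Without the library they were 0.10, 0.19 and 0.40, with 0 of 10 called and 0.194% of all genes called.

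Setting IFN against control at the same day, no member was called by edgeR in the main fit with all libraries. Without the filter on low counts some were called at each day, as counted in the closing section. At day 0 none had an unadjusted p under 0.05, DESeq2 called 0, and edgeR called 0.00578% of all genes. At day 14, 1 had an unadjusted p under 0.05, DESeq2 called 0, and 2.29% of all genes were called. At day 21, 2 had an unadjusted p under 0.05, DESeq2 called 0, and edgeR called 0.995% of all genes. Of the 17289 genes, 381, 2389 and 2272 had an unadjusted p under 0.05 at days 0, 14 and 21. DESeq2 called 1, 992 and 629 of them. Over the members the median log2 difference was 0.46, 0.05 and -0.36 at the 3 days, beside 0.00, -0.01 and -0.01 over all genes. It was 1.06 at day 21 without control day 21 replicate 2, and 0.04 at day 0 without both libraries that stood apart.

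At day 14 the level of Egr1 was 159 and 160 CPM with IFN and 54.7 and 69.4 CPM in control, and that of Atf3 34.2 and 31.5 against 17.5 and 23.6 CPM. Fosl2 was at 145 and 139 against 350 and 149 CPM and Jund at 26.8 and 28.4 against 68.9 and 32.8 CPM. The groups did not overlap for 6 of the 10 members, 4 higher and 2 lower with IFN, as for 55.7% of all genes. With all libraries the differences were log2 1.36 ± 1.09 for Egr1 (edgeR adjusted p = 0.654), 0.68 ± 0.99 for Atf3 (edgeR adjusted p = 0.83), -0.82 ± 0.41 for Fosl2 (edgeR adjusted p = 0.42) and -0.88 ± 0.33 for Jund (edgeR adjusted p = 0.246). Without control day 14 replicate 1 the last 2 were -0.07 and -0.25, and without control day 14 replicate 2 they were -1.3 and -1.32, where Jund passed as lower (edgeR adjusted p = 0.0431). With control day 21 replicate 2 left out, Atf3 passed as higher with IFN (log2 0.67, edgeR adjusted p = 0.0356, 6.46% of all genes called). On the 2 groups alone, Egr1 passed as higher (log2 1.35, edgeR adjusted p = 0.0165, 4.27% of all genes called), and without both libraries that stood apart Egr1 and Atf3 passed (15% of all genes called). The fits that leave out no day 14 library hold the same 4 libraries of that day and differ in the spread they pool. Those without a control day 14 library also change the difference itself.

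At day 21 the value for Atf3 was decided by 1 library. IFN libraries were at 42.1 and 42.2 CPM, and control at 22.1 and 847 CPM, so the difference was log2 -3.37 ± 1.06 with all libraries (edgeR adjusted p = 0.224) and 0.92 without control day 21 replicate 2 (edgeR adjusted p = 0.0766). Egr1 was at 1167 and 952 CPM with IFN and at 70.9 and 2287 CPM in control, giving log2 -0.15 ± 1.07 with all libraries (edgeR adjusted p = 0.968) and 3.89 without that library (edgeR adjusted p = 0.192). Fosb was at 87.9 and 79.8 against 12.7 and 118 CPM, giving 0.37 ± 1.30 (edgeR adjusted p = 0.938) and 2.71 (edgeR adjusted p = 0.684). Fosl2 was at 185 and 167 against 233 and 524 CPM (log2 -1.11 ± 0.41, edgeR adjusted p = 0.283; -0.42 without that library). For Atf3, Egr1 and Fosb the IFN libraries thus lay between the 2 control libraries. Without the library, 0 of 10 members passed (3 at an unadjusted p under 0.05, 0.961% of all genes called). Without both libraries that stood apart, Atf3, Egr1 and Fosb passed as higher with IFN (4.73% of all genes called), with control day 21 then a lone library assumed to vary like the other groups.

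Whether the difference between arms changed with time was tested as an interaction. From day 0 to day 14, edgeR called 0 of 10 members, with 1 at an unadjusted p under 0.05 and 0 by DESeq2. Of all genes, edgeR called 0.596%, with 1926 at an unadjusted p under 0.05 and 476 called by DESeq2. The fit without control day 21 replicate 2 again called 0, with 2 at an unadjusted p under 0.05 (1.86%). From day 14 to day 21 it called 0 of 10, with 1 at an unadjusted p under 0.05 and 0 by DESeq2, and 0% of all genes, with 1315 at an unadjusted p under 0.05 and 32 called by DESeq2. The same 0 of 10 and 0% held without control day 21 replicate 2, with 0 members and 1423 genes at an unadjusted p under 0.05. Without both libraries that stood apart, 2 passed, Fosb and Egr1, where 0.523% of all genes passed. In the main fit, the low values at day 14 and higher values at day 21 in the IFN arm are therefore not shown to differ from control. Without the filter on low counts, and with all libraries kept, some members passed in both interactions, as counted in the closing section. That setting also called 829 and 386 of all genes.

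Per length, as counts scaled to exon length and library size (RPKM, GENCODE M21 exons), Jun had the highest median over the 11 libraries without control day 21 replicate 2, at 87.5, and Junb followed at 71.6. Egr1 was at 35.6, Jund at 26.2, Fosl1 at 25.3 and Fosl2 at 24.1. Atf3 was at 10.9, Fos at 7.07, Egr2 at 6.02 and Fosb at 2.04. The ranges over these libraries overlapped for every pair of neighbours in that order. Fos had the widest range in ratio, from 0.942 to 173 RPKM, and Atf3 the narrowest in ratio, from 8.10 to 19.6 RPKM. At day 0 of the IFN arm the order was headed by Jun at 187, Fos at 159 and Egr1 at 137 RPKM, and at day 21 by Egr1 at 236 and Junb at 142 RPKM. At day 14 Junb led at 67.9 RPKM, and Fos was at 3.84 RPKM.

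The members fell into more than one pattern across those 11 libraries, which share groups and replicates, so correlations of log2 CPM are given as descriptions. Fos and Fosb were the most alike (Pearson's r = 0.953), then Jun and Egr2 (0.911), Fosb and Egr2 (0.892), Junb and Egr1 (0.877) and Fos and Egr1 (0.872). Jund was also near Jun (0.84). Fosl1 opposed Jund (-0.726) and Fos (-0.559), and Atf3 opposed Fosl2 (-0.71). The genes outside the members most like Fos, among 11518 compared, were Zfp36, an mRNA decay factor that limits short-lived transcripts (r = 0.975), P3h2 (0.969) and Klf11 (0.963). Those most like Egr1 were Ier2, an immediate early gene (0.971), Hes1, a Notch target (0.965), and Abca8b (0.961). Those most like Jun were Zfp608 (0.990), Klhdc8a (0.985) and Crim1 (0.971), and those most like Atf3 were Zdhhc13 (0.977), Trim56 (0.973) and Polr3f (0.968). In control day 21 replicate 2, which these values leave out, Ier2 was at 261 CPM and Zfp36 at 216 CPM, above their other libraries as Egr1 was, while Hes1 was at 21.7 CPM, inside its range.

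**Figure D4:**
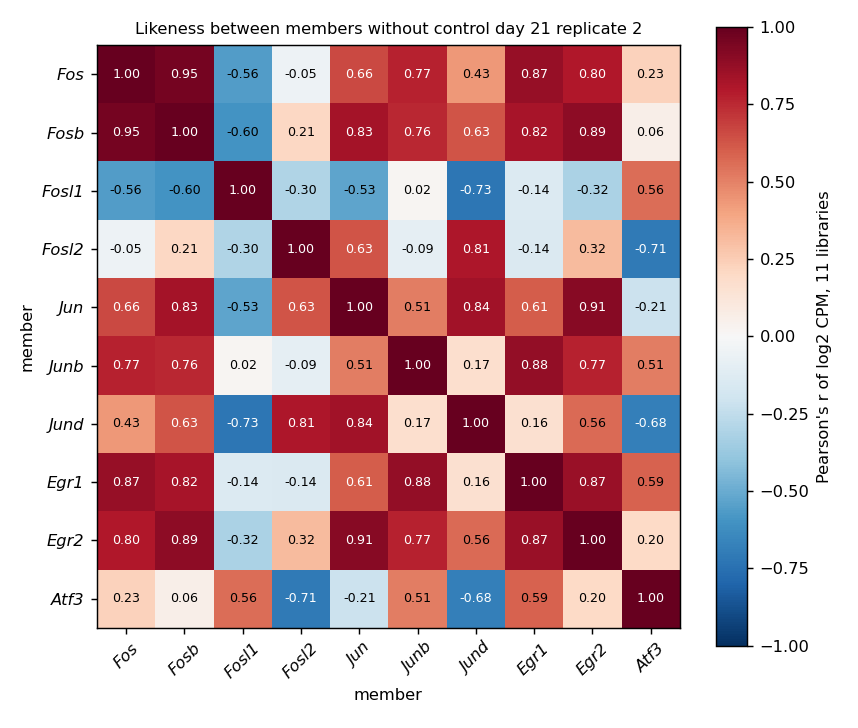
Pearson's r of log2 CPM between every pair of the 10 genes over 11 libraries, without control day 21 replicate 2 (both axes list the genes, colour and numbers give r). Fos and Fosb stand at 0.95, and Fosl1 and Jund at -0.73.

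The genes around these factors were counted from lists. Counts by DESeq2 are to be read against its own calls over all genes, given in the closing section. Counts by edgeR are to be read against the share of all genes called. With all libraries that share was 10.7% from day 0 to day 14 of the IFN arm, 2.38% in control over the same days, and 2.29% and 0.995% between arms at days 14 and 21. Without control day 21 replicate 2 these shares were 20.9%, 8.35%, 6.46% and 0.961%, and 0.54% from day 14 to day 21 of the IFN arm. Of 12 upstream regulators (serum response factor, its partners, and CREB and Mef2 factors), 2 fell and 0 rose from day 0 to day 14 of the IFN arm (10.7% of all genes called). They were Mrtfa, an actin-regulated partner of Srf (log2 -0.87 ± 0.16, edgeR adjusted p = 0.00608), and Srf itself (log2 -0.99 ± 0.23, edgeR adjusted p = 0.0217). The list median was -0.30, beside 0.01 over all genes. In control over the same days 0 of the 12 passed by edgeR, with a median of -0.25, 5 at an unadjusted p under 0.05 and 1 called by DESeq2. Without control day 21 replicate 2, 1 rose and 4 fell in the IFN arm (20.9% of all genes), and 3 fell in control (8.35%). At day 21, Mef2a was higher with IFN than in control (log2 1.01 ± 0.19, edgeR adjusted p = 0.0408), the only call among the 12. At day 14 edgeR called 0 of them between arms, with 3 at an unadjusted p under 0.05 and 1 called by DESeq2.

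Of 22 growth factor and ERK pathway genes, 2 rose and 2 fell from day 0 to day 14 of the IFN arm (10.7% of all genes called), with a median of 0.11. The receptor gene Fgfr1 rose (log2 1.41 ± 0.27, edgeR adjusted p = 0.00892), and the kinase gene Rps6ka3 (log2 -1.23 ± 0.25, edgeR adjusted p = 0.0105) and the receptor gene Pdgfrb (log2 -0.76 ± 0.17, edgeR adjusted p = 0.0187) fell. In control 1 rose, Pdgfra (log2 0.94 ± 0.21, edgeR adjusted p = 0.0455). Between arms 0 of 22 passed by edgeR at day 14 or day 21, with medians of -0.04 and -0.05 (0.02 at day 21 without control day 21 replicate 2), 5 and 6 at an unadjusted p under 0.05, and 2 called by DESeq2 at each day. Without control day 21 replicate 2, 3 rose and 5 fell from day 0 to day 14 of the IFN arm (20.9% of all genes), 1 passed in each direction in control over those days (8.35%), and 1 passed in each direction between arms at day 14 (6.46%).

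Of 20 feedback inhibitors, 2 rose and 2 fell from day 0 to day 14 of the IFN arm (10.7% of all genes called). The MAP kinase phosphatase genes Dusp2 (log2 3.91 ± 0.45, edgeR adjusted p = 0.000692) and Dusp4 (log2 2.63 ± 0.61, edgeR adjusted p = 0.0214) rose and Dusp8 (log2 -2.16 ± 0.40, edgeR adjusted p = 0.00725) fell, with a list median of 0.25. In control Dusp8 alone passed, lower (log2 -1.91 ± 0.39, edgeR adjusted p = 0.0339). At day 14, Dusp2 was higher with IFN, at 7.60 and 6.43 CPM against 2.59 and 1.27 CPM (log2 1.86 ± 0.40, edgeR adjusted p = 0.0394). For day 21 against day 14 of the IFN arm edgeR called 0 of 20, with a median of 0.57, 6 at an unadjusted p under 0.05 and 2 called by DESeq2. Without control day 21 replicate 2, 5 rose and 3 fell by day 14 of the IFN arm (20.9% of all genes), 2 rose and 2 fell in control (8.35%), and at day 14 3 were higher and 1 lower with IFN (6.46%).

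Of 32 other immediate early genes, 5 rose and 4 fell from day 0 to day 14 of the IFN arm (10.7% of all genes called), with a median of 0.17. The matrix gene Ccn2 (log2 3.07 ± 0.37, edgeR adjusted p = 0.000851) and the kinase gene Sgk1 (log2 2.62 ± 0.33, edgeR adjusted p = 0.00103) rose, and Rhob, a small GTPase gene (log2 -1.79 ± 0.29, edgeR adjusted p = 0.00393), fell. In control 2 rose and 0 fell, Sgk1 (log2 2.13 ± 0.33, edgeR adjusted p = 0.00944) and Ccn2 (log2 1.94 ± 0.36, edgeR adjusted p = 0.0211). At day 14 Ccn2 was higher (log2 1.56 ± 0.35, edgeR adjusted p = 0.0488) and Rhob lower (log2 -1.63 ± 0.29, edgeR adjusted p = 0.0166) with IFN than in control. At day 21 edgeR called 0 of the 32 between arms (median -0.48, 4 at an unadjusted p under 0.05, 0 by DESeq2), and 4 were higher and 0 lower with IFN without control day 21 replicate 2 (median 0.66). Between days 14 and 21 of the IFN arm it called 0 (7 at an unadjusted p under 0.05, 2 by DESeq2), and 6 rose and 0 fell without that library, where 0.54% of all genes passed, with a median of 0.63 in both. That omission also gave 7 higher and 7 lower by day 14 of the IFN arm (20.9% of all genes), 6 and 4 in control (8.35%), and 3 and 2 between arms at day 14 (6.46%).

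Among 16 other bZIP genes, 13 were tested. Maf, a partner of Fos and Jun, was lower with IFN at day 14, at 81.9 and 74.1 CPM against 202 and 208 CPM (log2 -1.40 ± 0.16, edgeR adjusted p = 0.00133). Batf2, known as an interferon-induced gene, was higher at day 14 (log2 3.92 ± 0.64, edgeR adjusted p = 0.0102) and at day 21 (log2 4.07 ± 0.68, edgeR adjusted p = 0.0177; 0.056 without control day 21 replicate 2), from levels under 1 CPM in control. In control, Maf (log2 1.25 ± 0.16, edgeR adjusted p = 0.00316) and Nfil3 (log2 2.22 ± 0.41, edgeR adjusted p = 0.0211) rose from day 0 to day 14. In the IFN arm Batf2 alone passed over those days (log2 4.02 ± 0.65, edgeR adjusted p = 0.00382). With control day 21 replicate 2 left out, 14 were tested, of which 5 rose by day 14 of the IFN arm (20.9% of all genes), 3 rose and 1 fell in control (8.35%), and 4 were higher and 2 lower with IFN at day 14 (6.46%).

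Of 26 genes described in textbooks as targets of AP-1 or Egr1, 5 rose and 5 fell from day 0 to day 14 of the IFN arm (10.7% of all genes called), with a median of 0.46. The growth factor gene Fgf2 (log2 2.20 ± 0.25, edgeR adjusted p = 0.000652) and the collagenase gene Mmp13 (log2 2.46 ± 0.31, edgeR adjusted p = 0.00104) rose, and Plau, the urokinase gene, fell (log2 -2.51 ± 0.31, edgeR adjusted p = 0.000938). In control 2 rose and 0 fell, Mmp13 (log2 3.85 ± 0.33, edgeR adjusted p = 0.000365) and Fgf2 (log2 1.34 ± 0.25, edgeR adjusted p = 0.0212). Between arms edgeR called 0 of the 26 at day 14 (median 0.28, 12 at an unadjusted p under 0.05, 5 by DESeq2) and 0 at day 21 (median -0.11, 6 at an unadjusted p under 0.05, 3 by DESeq2). Without control day 21 replicate 2, 6 were higher and 4 lower with IFN at day 14 (6.46% of all genes), and 1 in each direction at day 21 (0.961%, median 0.10). By day 14, 11 then rose and 6 fell in the IFN arm (20.9%), and 3 rose and 5 fell in control (8.35%).

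**Figure D5:**
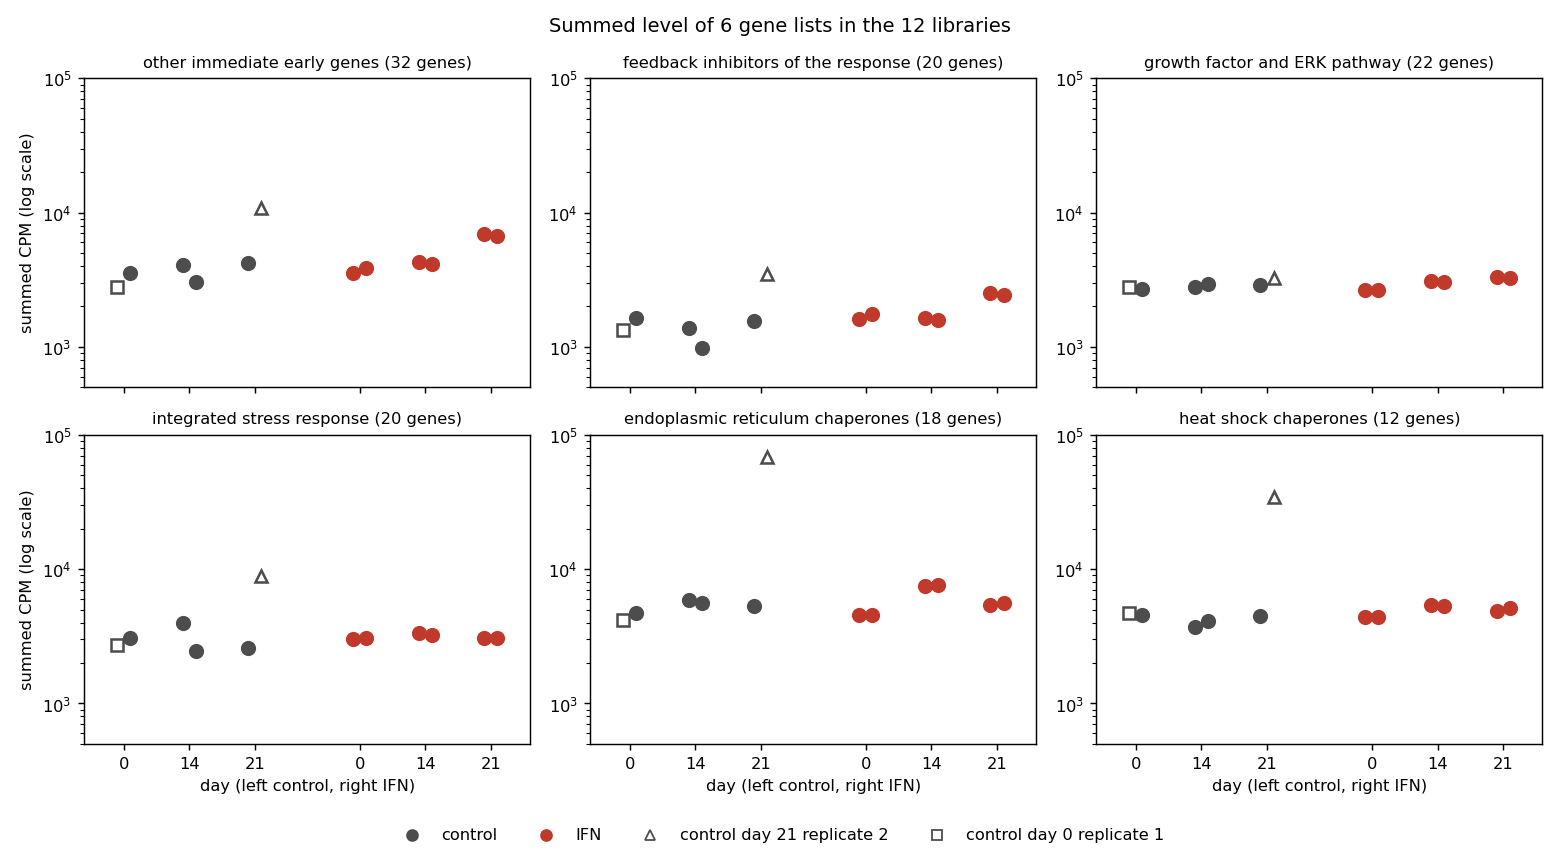
Summed CPM (y axis, log scale) of 6 gene lists in each library, by day and arm (x axis), with markers as in the plot of single genes by library. The 18 endoplasmic reticulum chaperones sum to 68420 CPM in control day 21 replicate 2 and to at most 7589 CPM elsewhere, while the 22 growth factor and ERK pathway genes stay between 2644 and 3307 CPM in all 12 libraries.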

How the data were processed

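The authors deposited raw counts of reads per gene symbol for 12 libraries in 1 table. Per the submitters' processing notes, HISAT2, SAMtools and featureCounts were used with mm10; versions, annotation and the use of strand are not given in the sources used here, so reads of overlapping antisense genes may be included. The tests were run with edgeR 4.0.16 under R 4.3.3: filterByExpr over 6 groups (minimum count 10), TMM scaling, robust quasi-likelihood F tests with 1 mean per group and 6 residual degrees of freedom, and Benjamini-Hochberg adjustment over 17289 genes. A gene was called at an adjusted p below 0.05, and an SE is the log2 fold change divided by the square root of F. DESeq2 1.42.0 was an alternative, beside those in the closing section. CPM uses TMM library sizes, and log2 CPM a prior count of 2. RPKM uses GENCODE M21 exon lengths, and 53292 of 55291 symbols matched. Promoter windows are from RefSeq, and motifs were searched on both strands. Replicates differed by more than counting noise in every group, with chi-square per degree of freedom of 5.27 to 447. The procedure was tested on simulated counts with the same spread for all genes and no library that stood apart. That test therefore does not cover the pair of unlike control libraries.

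Members and lists were chosen with earlier results of these data known. Named from each list were up to 3 genes called in a comparison with the smallest adjusted p, for IFN against control at days 14 and 21 and day 14 against day 0. Likeness is Pearson's r of log2 CPM over 11 libraries, among genes whose mean log2 CPM reached 1. Summed CPM over the 12 libraries was 5314 to 24740 for osteoblast, 78.2 to 538 for macrophage and osteoclast, 114 to 334 for chondrocyte, 13.4 to 102 for adipocyte, 4.98 to 18.7 for muscle and 2.62 to 5.34 for endothelial and epithelial markers.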

Additional observations from a re-analysis of the deposited data

How the results depend on the processing

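The 38 log2 fold changes printed for the members were recomputed under the other settings (684 values): 534 kept direction and side of the threshold, 58 no longer passed, 83 newly passed and 9 turned sign. The turned values were Fos, control day 14 against day 0, at 2.23 (-5.6 to 2.23 with 1 library left out), and Fosb there at 0.58 (-5.48 to 0.58), both without Control day 0 replicate 2; IFN against control at day 21 for Atf3, at 0.92 without Control day 21 replicate 2 and 0.92 without both libraries that stood apart (-4.31 to 0.92 with 1 left out); Fosb, at -0.47 without Control day 21 replicate 1 (-0.47 to 2.71); and Egr1 (-1.09 to 3.89), at 3.89 without Control day 21 replicate 2, 3.89 without both, 0 without IFN day 21 replicate 2 and 0.49 with the replicate block. The cause was not tested beyond what leaving out a library shows.

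Counts of members called follow, in the order IFN against control at days 0, 14 and 21, control day 14 against 0, 21 against 14 and 21 against 0, the same 3 steps of the IFN arm, and both interactions, for days 0 to 14 and 14 to 21. With all 12 libraries they were 0, 0, 0, 0, 0, 1, 4, 0, 2, 0 and 0. Without a filter on low counts they were 3, 4, 3, 5, 8, 6, 8, 6, 7, 3 and 3, where the prior spread is estimated with the low genes included. On the groups compared alone they were 0, 1, 0, 0, 0, 0, 9, 10, 9, 0 and 0. Without both libraries that stood apart (chosen after seeing the data) they were 0, 2, 3, 4, 0, 3, 8, 2, 5, 1 and 2. DESeq2 gave 0, 0, 0, 1, 3, 1, 6, 0, 2, 0 and 0, and RLE scaling differed from TMM only in the IFN arm at day 14 against 0, with 3. Leaving out 1 library at a time leaves a lone library in a group, and calls over all genes then swing widely. Counts of members from these fits are therefore not set side by side, and in every comparison some of the fits called no member. Between arms at day 21, and in control at day 21 against 14 and 0, most members were called without Control day 21 replicate 1. Calls over all genes were also highest there. Of all genes, the calls were 1, 396, 172, 411, 5, 1114, 1857, 0, 1762, 103 and 0 with all libraries, 88, 1175, 1039, 1503, 1426, 2775, 2705, 274, 2624, 829 and 386 without the filter, 1, 992, 629, 1229, 838, 2551, 2884, 111, 2771, 476 and 32 by DESeq2, 0, 657, 25, 105, 0, 25, 9161, 4502, 8231, 137 and 0 on the groups compared alone and 0, 2751, 868, 1866, 716, 2033, 5746, 741, 5498, 601 and 96 without both libraries that stood apart.

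Replicate numbers did not pair the samples: of 15 pairs of groups, 2 had correlated deviations over 0.1, with r from -0.05 to 0.11. With the replicate block the member counts were 1 for the IFN arm at day 14 and 1 at day 21 against day 0, and 0 elsewhere, control day 21 against day 0 included, and 1641, 1589 and 819 of all genes were called in those 3 comparisons, against 1857, 1762 and 1114 without it. Depth was not a limit for the members, since the lowest count was 72.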

Other observations

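The 2 matricellular genes among the other immediate early genes went opposite ways over the first 14 days of the IFN arm. Ccn2, named by rule, rose (log2 3.07 ± 0.37, edgeR adjusted p = 0.000851), from 49.9 and 56.9 CPM to 413 and 482 CPM. Ccn1, chosen after its values were seen, fell (log2 -2.97 ± 0.59, edgeR adjusted p = 0.0103), from 636 and 698 CPM to 91.7 and 78.0 CPM, and was at 333 and 349 CPM at day 21. Klf2, also chosen after its values were seen, fell (log2 -3.94 ± 0.73, edgeR adjusted p = 0.00768), from 57.6 and 66.9 CPM to 4.63 and 3.47 CPM, and at 7.12 and 9.02 CPM at day 21 it stayed low where Fos and Egr1 were higher than at day 14. In control day 0 replicate 1 Ccn1 was at 166 CPM and Klf2 at 11.5 CPM, below the other day 0 libraries, as Fos and Egr1 were there. In control day 21 replicate 2 Ccn1 was at 554 CPM and Klf2 at 8.81 CPM.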
